A study of Homo sapiens with 6 samples.

Results

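The genes described are the CDKN2A locus on chromosome 9p, with its products p16INK4a and ARF, its neighbours CDKN2B and MTAP, and genes of the retinoblastoma (RB) pathway on which its products act or which share their work: CDKN1B, CDKN2C, RB1, CDK4, CDK6, CCND1 and CCND3. They were taken from the deposited gene table by symbol. Of the 10 genes, 9 were matched among the 25706 rows of the table and 7 passed the filter on low counts that preceded testing. CDKN2A and MTAP did not pass it, and CDKN2B was not analysed here.

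The cells were MDA-MB-231, an established triple-negative breast cancer line of mesenchymal appearance. Oligo(dT)-selected RNA was sequenced in 6 libraries, 3 from cells overexpressing tsRNA-Gly-5-0006, a fragment of a glycine transfer RNA, and 3 from control cells. What the control cells carried is not given, and whether the replicates were separate cultures is not given either, so the p-values measure only the spread between these libraries, which may be technical. The values are counts and FPKM as deposited, where FPKM divides the fragments of a gene by the length of its transcript and by the fragments mapped in the library.

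In a cell that divides, D-type cyclins (CCND1, CCND3) bind CDK4 or CDK6, and the kinases phosphorylate RB1, which then releases E2F transcription factors that turn on genes of DNA replication. The INK4 proteins encoded by CDKN2A, CDKN2B and CDKN2C bind CDK4 and CDK6 and keep them from the cyclins, and p27, the product of CDKN1B, inhibits cyclin E and CDK2. CDKN2A also encodes ARF, in another reading frame of the same second exon, which holds back the ubiquitin ligase MDM2. MTAP, the next gene along the chromosome, salvages methionine and is often lost together with CDKN2A in tumours. MDA-MB-231 is known as a line without a working CDKN2A gene.

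The libraries held 54371226 to 74586916 deposited counts. Overexpression library 1 stood apart from the other 5, and the fold changes of the genes described are therefore given with and without it. In that library the transcripts of low GC content were high, where each library was set against the mean of the other 5. Genes with up to 40% GC lay a median of 0.45 (log2) above that mean in overexpression library 1. In the other 5 libraries the medians were -0.26 to -0.04. Genes above 60% GC lay at -0.10 in overexpression library 1 and at -0.08 to 0.13 in the other 5, with overexpression library 3 the highest. Many fibroblast markers were high there too. Their summed level was 195 CPM (counts scaled to library size) in overexpression library 1, 69.9 and 50.5 in the other overexpression libraries, and 63.4 to 74.7 in the controls. COL3A1, DCN and FAP, 3 of the 13 markers with a row, had counts in overexpression library 1 alone. COL5A1, the fibroblast marker of highest level in the controls, was not high there, with 5.06, 4.402 and 4.38 FPKM in the controls and 4.63, 5.32 and 3.26 FPKM in the overexpression libraries, nor was PDGFRB, with a log2 fold change of -0.03 (SE 0.21). The 8 mesenchymal markers of the line had counts in every library, with a summed level of 7301 to 8756 CPM. They ranged widely, with VIM at 365 to 460.0 FPKM and EGFR at 0.580 to 0.849 FPKM. Luminal epithelial markers differed as well: the cadherin CDH1 stayed at or under 0.0424 FPKM, while the keratin KRT19 had 1895 to 2505 FPKM. In bulk RNA, fewer cells of a type and less RNA per cell cannot be told apart.

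At baseline CDKN2A and MTAP were listed at 0 in the 3 controls, while 5 genes (CCND3, CDK4, CCND1, CDKN2C and CDKN1B) had at least 1 FPKM in every library. CDK6 had under 1 FPKM in all 6 libraries, and RB1 in all but overexpression library 1. None of the 7 genes tested passed the edgeR quasi-likelihood test between overexpression and control, and none of the 15951 genes tested did (0% called at a Benjamini-Hochberg adjusted p of 0.05). Of all genes tested, 611 had an unadjusted p under 0.05, and DESeq2, run as an alternative, called 14. Without overexpression library 1 the genes described were again all short of the threshold, when 4 of 16213 genes passed (0.0247%). CDKN2C was higher in each overexpression library than in every control, at an unadjusted p that did not survive the adjustment.

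The row for CDKN2A (ENSG00000147889) spans chr9:21967752-21994873 on the minus strand of hg38, and was listed at 0 FPKM in controls 1, 2 and 3, 0.0259 FPKM in overexpression library 1, and 0 in overexpression libraries 2 and 3. The deposited counts were 9 in overexpression library 1 and 0 in the other 5. MTAP (ENSG00000099810, chr9:21802636-21937651, plus strand) followed the same pattern, with 0.00349 FPKM and 4 counts in overexpression library 1 and 0 in each of the others. Both genes were therefore listed at 0 in 5 of 6 libraries. The library that had counts was the one in which many fibroblast markers were also high. Low deposited counts pile up at multiples of 4, so the 9 and 4 counts may stand for fewer fragments. Rows with at least 4 counts in 1 library alone numbered 662 in overexpression library 1, against 199 to 311 in the other 5. Transcripts of CDKN2A have 61.4% GC and those of MTAP 39.1%. The part of fibroblast transcripts or of GC content in the counts was not tested, and RNA levels alone do not say whether the locus was lost or unread.

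The single CDKN2A row stands for both products of the gene. The 5′ flanks of the 2 start sites listed for the gene are shown. In the RefSeq windows (GRCh38.p14, minus strand), the 250 bases before the start are in lower case and the first 50 transcribed bases are in capitals. The windows are listed under the gene symbol alone. The headings p16INK4a and ARF were given by position, and which product each start serves was not tested. The window headed p16INK4a is chr9:21974808-21975107. The window headed ARF, chr9:21995275-21995574, lies beyond the end of the deposited row, so it need not be the start of the ARF transcripts in that row.
CDKN2A p16INK4a start: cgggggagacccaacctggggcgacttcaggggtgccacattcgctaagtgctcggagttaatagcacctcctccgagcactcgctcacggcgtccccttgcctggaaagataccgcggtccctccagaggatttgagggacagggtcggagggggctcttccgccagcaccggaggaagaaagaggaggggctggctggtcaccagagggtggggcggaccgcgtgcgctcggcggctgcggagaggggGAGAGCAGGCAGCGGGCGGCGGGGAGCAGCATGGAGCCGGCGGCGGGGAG
CDKN2A ARF start: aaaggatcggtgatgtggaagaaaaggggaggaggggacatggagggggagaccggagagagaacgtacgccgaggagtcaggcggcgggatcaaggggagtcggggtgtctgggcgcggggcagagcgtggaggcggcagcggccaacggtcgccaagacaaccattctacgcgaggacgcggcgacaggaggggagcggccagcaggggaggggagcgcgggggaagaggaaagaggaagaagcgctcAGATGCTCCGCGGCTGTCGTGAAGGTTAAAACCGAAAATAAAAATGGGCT
The windows held 26 and 28 CG dinucleotides, counted on 1 strand, and the median over 35116 RefSeq promoter windows of the same length was 14. Both windows are thus rich in the dinucleotide at which DNA is methylated, but methylation was not measured in these libraries.

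The zeros reached beyond the 2 genes. From FOCAD to TUSC1, a stretch of 4.68 Mb around the locus, the table had 6 rows, and 4 of them (HACD4, KLHL9, MTAP and CDKN2A) had 0 counts in the 5 libraries other than overexpression 1. HACD4, a fatty acid elongation enzyme, had 7 counts in overexpression library 1 and KLHL9, a ubiquitin ligase adaptor, had 20. The 4 genes summed to 40 counts there. The table held 0 rows without counts in all 6 libraries, so genes with none anywhere do not appear. A gene with 0 in the other 5 libraries was thus listed only if overexpression library 1 had counts. Rows above 0 in 1 library alone numbered 1030 in overexpression library 1 and 410 to 601 in the other 5. Of the other rows in the stretch, the pseudogene KHSRPP1 had 3 counts in control 1 and 0 elsewhere, and the pseudogene CLIC4P1 had 21 to 43 counts in all 6 libraries. FOCAD itself, at the centromere-distal edge, had 42 to 54 counts in every library, and the stretch between the end of FOCAD and the start of CLIC4P1 measured 1.75 Mb.

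Expression was seen on both sides. RPS6, a ribosomal protein gene and the nearest of the listed genes with at least 1 FPKM in every library on the telomeric side, had 107, 116 and 113 FPKM in the controls and 110.0, 133 and 99.6 FPKM in the overexpression libraries. TUSC1, the nearest on the other side, had 5.04, 5.68 and 4.16 FPKM in the controls and 4.70, 5.26 and 5.09 FPKM in the overexpression libraries. Neither pair of groups was separated. Farther out, HAUS6, a subunit of the augmin complex of the spindle, had 74, 53 and 64 counts in the controls and 1019, 55 and 61 in the overexpression libraries, so a high value in overexpression library 1 was also seen outside the stretch of zeros. Of 34 genes listed along 9p, 15 had a row and 11 were tested; 0 passed, 6 of 11 had a positive log2 fold change, and the median was 0.02, as was that of all genes tested to 2 decimals. Without overexpression library 2 the median of the list was 0.28.

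**Figure D1:**
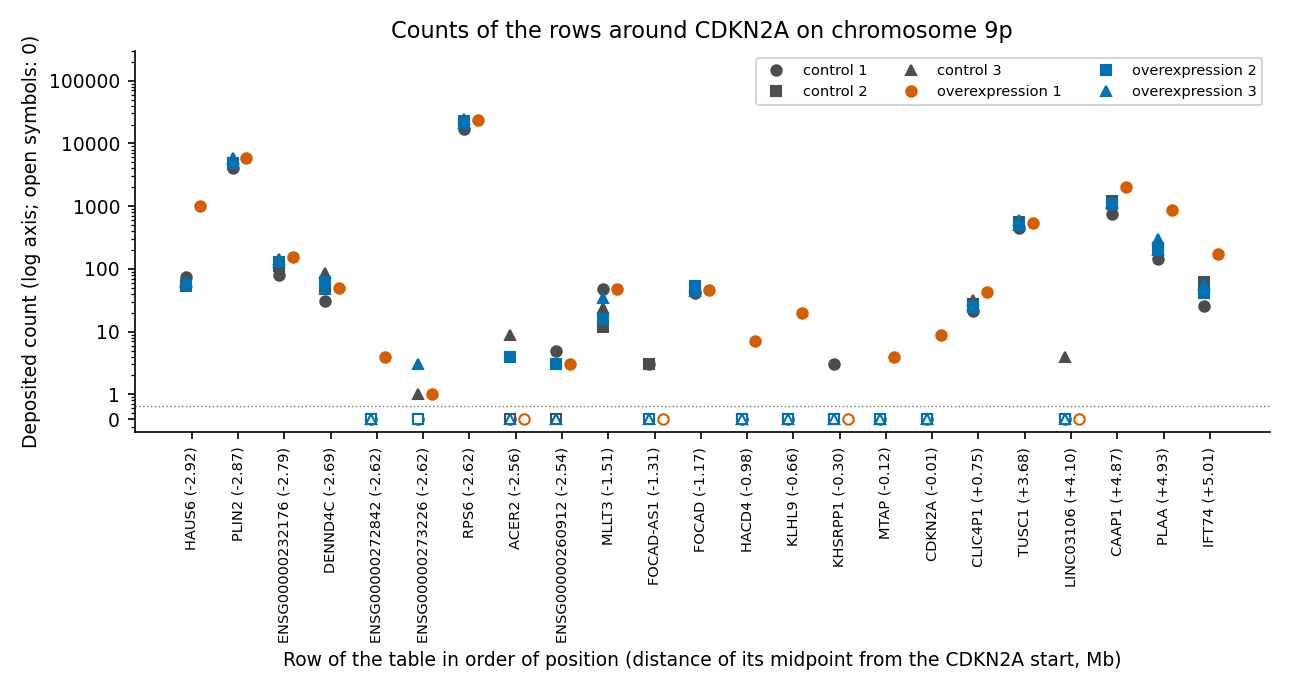
Deposited counts (log axis, with 0 drawn as open symbols at the bottom) of the 23 rows from HAUS6 to IFT74 in order of position, labelled with the distance of each row's midpoint from the CDKN2A start in Mb. HACD4, KLHL9, MTAP and CDKN2A have filled symbols for overexpression library 1 alone, at 4 to 20 counts, while FOCAD and TUSC1 on either side have counts in all 6 libraries.

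The 7 genes tested differed in level in the controls. By mean FPKM the order was CCND3, CDK4, CCND1, CDKN2C, CDKN1B, RB1 and CDK6, and the ranges of neighbours in that order did not overlap among the 3 controls. In the overexpression libraries the ranges of CCND3 and CDK4, of CCND1 and CDKN2C, and of CDKN1B and RB1 overlapped. CCND3 ranked 923 and CDK4 ranked 1022 among all rows by control mean, whereas RB1 ranked 9389 and CDK6 ranked 12152.

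**Figure D2:**
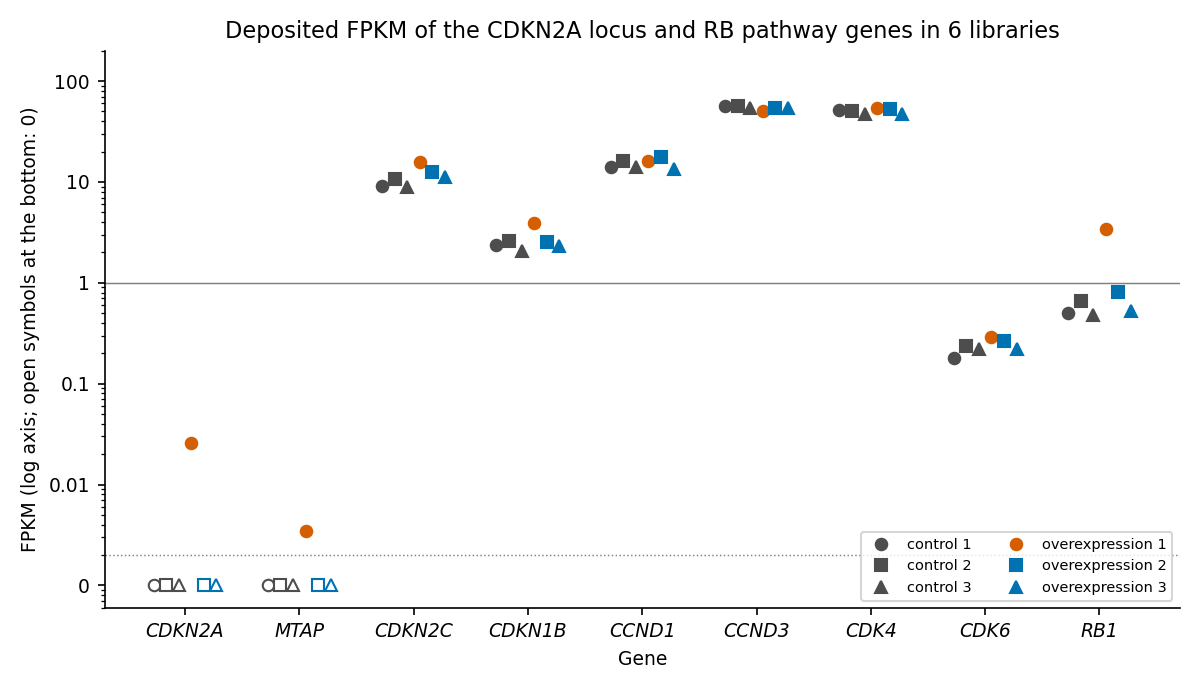
Deposited FPKM (log axis, with 0 as open symbols below the dotted line) of the 9 genes with a row, by library, with a solid line at 1 FPKM. CDKN2A and MTAP sit at 0 in 5 libraries, CDKN2C is higher in all 3 overexpression libraries, and RB1 is at 3.43 FPKM in overexpression library 1 against at most 0.805 FPKM elsewhere.

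Among the inhibitors that remained expressed, CDKN2C encodes p18INK4c, an INK4 protein like p16 (chr1:50960745-50974634, plus strand). It had 9.13, 10.7 and 8.86 FPKM in controls 1, 2 and 3 and 15.7, 12.5 and 11.3 FPKM in overexpression libraries 1, 2 and 3. All 3 overexpression values lay above all 3 control values, with overexpression library 1 the highest. The means were 9.58 ± 1.01 FPKM in the controls and 13.1 ± 2.31 FPKM in the overexpression libraries (SD, n = 3 each). The log2 fold change was 0.41 (SE 0.13, 95% interval 0.11 to 0.71), a 1.33-fold ratio, with an unadjusted p of 0.0150 and an edgeR adjusted p of 0.994. CDKN2C was the only one of the 7 genes with an unadjusted p under 0.05, where 3.83% of all genes tested had one. Without overexpression library 1 the log2 fold change was 0.28 (SE 0.12, 95% interval 0.01 to 0.55), and both remaining overexpression values were still above the controls.

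CDKN1B (chr12:12685498-12722325, plus strand), which encodes p27, had 2.36, 2.58 and 2.07 FPKM in controls 1, 2 and 3 and 3.92, 2.56 and 2.33 FPKM in overexpression libraries 1, 2 and 3. Overexpression library 1 was the highest of the 6, and the other 2 overexpression values lay within the control range. The log2 fold change was 0.28 (SE 0.19, edgeR adjusted p 0.996) with that library and 0.04 (95% interval -0.25 to 0.33) without it. The ratio of CDKN2C to CDKN1B in FPKM was 3.87, 4.17 and 4.28 in the controls and 4.01, 4.87 and 4.83 in the overexpression libraries (2-sided exact permutation p = 0.3, n = 3 each, the smallest possible p being 0.1).

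Of the cyclins, CCND3 (chr6:41934934-42050357, minus strand) had 56.6, 56.8 and 54.1 FPKM in controls 1, 2 and 3 and 50.6, 53.7 and 53.7 FPKM in overexpression libraries 1, 2 and 3. The overexpression values all lay below the control values, by little. The means were 55.8 ± 1.501 FPKM in the controls and 52.7 ± 1.78 FPKM in the overexpression libraries (SD, n = 3 each), and the log2 fold change was -0.12 (SE 0.09, 95% interval -0.34 to 0.09, edgeR adjusted p 0.9998), and -0.08 (SE 0.10) without overexpression library 1. On CPM scaled between libraries by TMM the 2 groups overlapped, and CDKN2C alone of the 7 genes was separated, where 4.92% of all genes tested were higher and 4.09% lower.

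CCND1 (chr11:69641156-69654474, plus strand), a cyclin gene amplified in many breast cancers, had 14.1, 16.1 and 13.9 FPKM in controls 1, 2 and 3 and 16.02, 17.7 and 13.4 FPKM in overexpression libraries 1, 2 and 3. The groups overlapped, and the log2 fold change was 0.05 (SE 0.09, 95% interval -0.17 to 0.26), and 0.05 without overexpression library 1. The ratio of CCND3 to CCND1 was 4.003, 3.54 and 3.88 in the controls and 3.16, 3.03 and 4.01 in the overexpression libraries (2-sided exact permutation p = 0.4, n = 3 each). CCND2, the third D-type cyclin, was listed at 0 in controls 1 and 2 and in overexpression library 2, and had at most 0.0375 FPKM in the rest.

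CDKN2C and CCND3 were thus the genes of the 7 whose FPKM groups did not overlap, 1 in each direction. Over all genes tested, 5.67% were higher and 2.55% lower without overlap. Without overexpression library 1 the same 2 genes were separated, with 9.81% of genes higher and 5.7% lower. Without overexpression library 3 the genes separated were CDKN2C, CDK4, CDK6 and RB1 (higher) and CCND3 (lower), 5 in all, and 23.6% of genes were higher and 5.98% lower.

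Levels of both kinases overlapped between the groups. CDK4 (chr12:57747727-57756013, minus strand) had 51.2, 51.1 and 47.7 FPKM in controls 1, 2 and 3 and 53.9, 52.7 and 47.5 FPKM in overexpression libraries 1, 2 and 3. Overexpression libraries 1 and 2 lay above every control and library 3 below every control, and the log2 fold change was -0.01 (SE 0.07), with a 95% interval of -0.18 to 0.16, and -0.03 (SE 0.09) without overexpression library 1. CDK6 (chr7:92604921-92833917, minus strand), the other partner of the D-type cyclins, had 0.179, 0.239 and 0.223 FPKM in controls 1, 2 and 3 and 0.288, 0.265 and 0.221 FPKM in overexpression libraries 1, 2 and 3. Its groups overlapped too, at a level under 1 FPKM throughout, and the log2 fold change was 0.22 (SE 0.20, 95% interval -0.24 to 0.68, edgeR adjusted p 0.9998), and 0.15 (SE 0.21) without overexpression library 1. With a GC offset per library, the log2 fold change of CDK6, whose transcripts have 39.5% GC, was -0.05. The ratio of CDK4 to CDK6 was 286, 214 and 214 in the controls and 187, 199 and 215 in the overexpression libraries (2-sided exact permutation p = 0.3, n = 3 each).

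RB1 (chr13:48303744-48599436, plus strand), the pocket protein gene at the end of the pathway, had 0.505, 0.665 and 0.477 FPKM in controls 1, 2 and 3 and 3.43, 0.805 and 0.521 FPKM in overexpression libraries 1, 2 and 3. Its counts were 193, 288 and 253 in the controls and 1743, 333 and 264 in the overexpression libraries. Overexpression library 1 was far above the others, and the remaining overexpression values overlapped the controls. The log2 fold change was 1.45 (SE 0.64, 95% interval -0.04 to 2.95, edgeR adjusted p 0.994) with that library and 0.23 (SE 0.22, 95% interval -0.28 to 0.74) without it. In overexpression library 1, RB1 lay 2.34 (log2) above its mean over the other libraries. By that measure, 300 of the 15951 genes tested lay farther above theirs.

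RB1 transcripts have 37.3% GC, in the class that was high in overexpression library 1, where 198 of 2098 genes exceeded its deviation. A GC offset per library left a log2 fold change of 0.82. COL1A1, a fibroblast collagen gene, had 0.182, 0.177 and 0.182 FPKM in the controls and 4.69, 0.156 and 0.0627 FPKM in the overexpression libraries; of 9 fibroblast markers tested, 0 passed and 7 had a positive log2 fold change (median 2.57, and -0.18 without overexpression library 1). The part of either in the RB1 value was not tested.

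**Figure D3:**
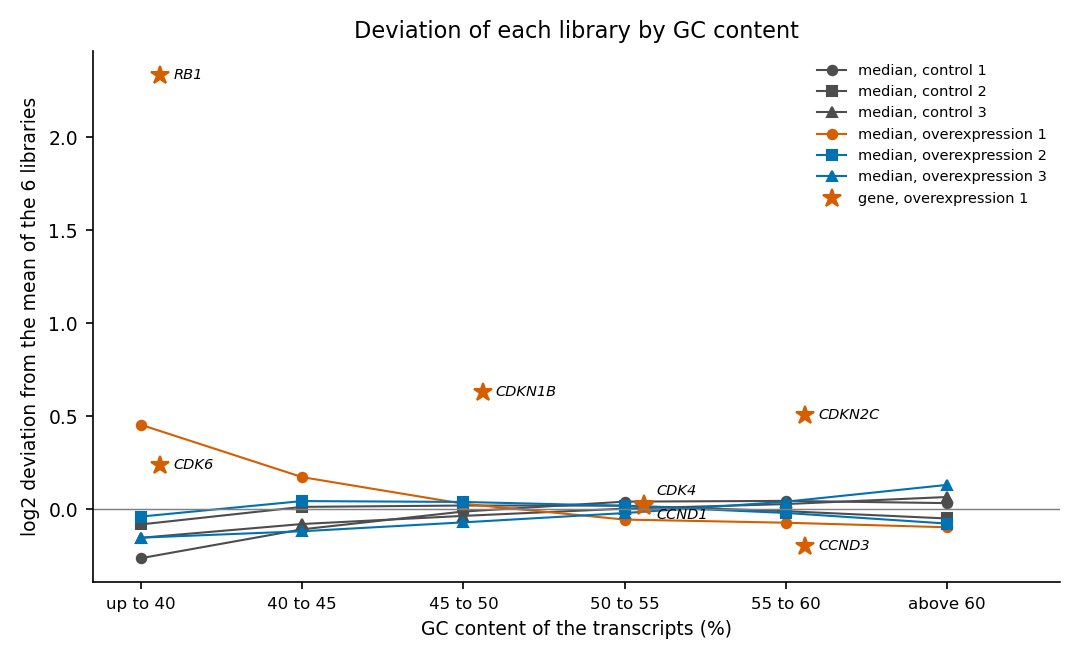
Median log2 deviation of each library from the mean of the other libraries (lines), by GC content of the transcripts. Stars mark the 7 genes tested at their deviation in overexpression library 1. The axis label names the mean of the 6, but the library itself is left out of that mean. The line of that library runs from 0.45 at up to 40% GC to -0.10 above 60%, and RB1, at 2.34, lies far above the median of its class.

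**Figure D4:**
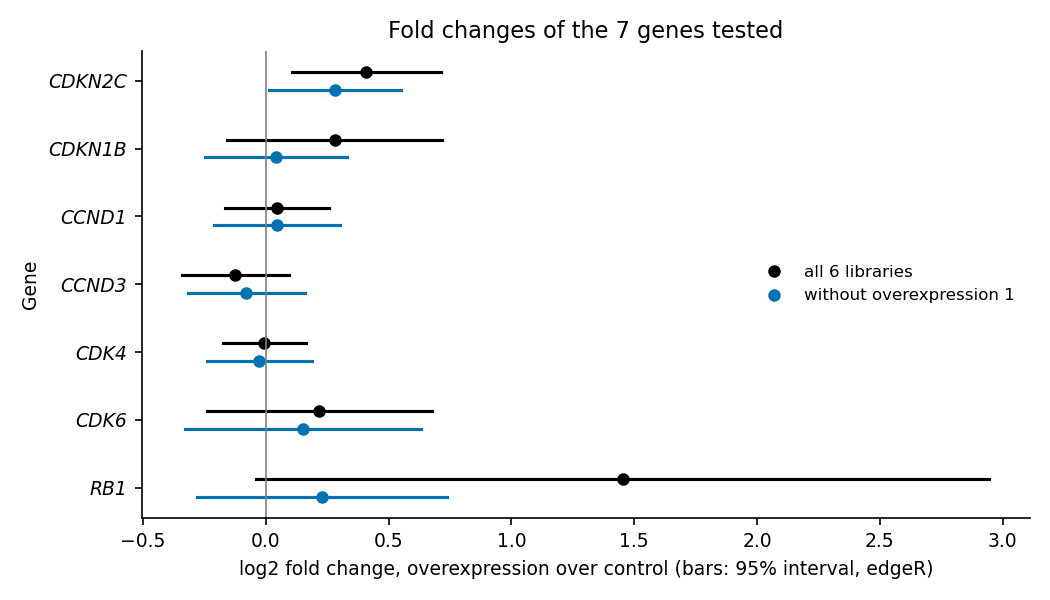
log2 fold changes, overexpression over control, with 95% intervals from edgeR for the 7 genes tested, with all 6 libraries (black) and without overexpression library 1 (blue). The interval of CDKN2C stays above 0 in both, that of RB1 narrows from -0.04 to 2.95 to -0.28 to 0.74, and CDK4 lies at 0.

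Some rows overlap others on the chromosome, and whether strand was used in counting is not given. CCND1 overlaps LTO1 on the opposite strand, which had 520 to 884 counts beside 3983 to 6014 for CCND1. CDK4 overlaps TSPAN31 (478 to 724 counts) and MARCHF9 (775 to 1078 counts), both antisense, beside 9387 to 13154 of its own. RB1 overlaps RCBTB2, which had 20 to 37 counts. Without strand, reads of such partners cannot be told apart.

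The rest of the G1 machinery was described with lists of genes by role, none of which had a gene past the edgeR test in either direction, with or without overexpression library 1. Over all genes tested, 8742 of 15951 had a positive log2 fold change and the median was 0.02 (0.01 without that library). Of 14 other cyclins, kinases and inhibitors of G1, 5 were positive (median -0.06). CDKN2D, the remaining INK4 gene, was expressed at 36.6, 43.3 and 42.2 FPKM in the controls and 33.5, 40.4 and 49.4 FPKM in the overexpression libraries, a log2 fold change of -0.02 (SE 0.18) that was 0.13 without overexpression library 1. CDKN1A, which encodes the CDK inhibitor p21, had 89.9, 89.05 and 89.04 FPKM in the controls and 80.2, 89.7 and 88.7 FPKM in the overexpression libraries, and the groups overlapped (log2 -0.09, and -0.03 without that library).

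CDK7, the kinase that activates other cyclin-dependent kinases, had 8.49, 8.80 and 7.88 FPKM in the controls and 14.2, 10.2 and 8.87 FPKM in the overexpression libraries. The overexpression values were all higher, with a log2 fold change of 0.35 (SE 0.16) that was 0.16 without overexpression library 1. CDKN1C, which encodes p57, had 8.18, 8.43 and 7.41 FPKM in the controls and 6.93, 6.89 and 6.9997 FPKM in the overexpression libraries. All 3 overexpression values were lower, at a log2 fold change of -0.25 (SE 0.11), and -0.23 without that library. Both missed the threshold (edgeR adjusted p 0.994 each). CCNE1, the cyclin that follows the D-type cyclins, had a log2 fold change of -0.24 (SE 0.17) and overlapping groups, and that of CDC25A, a phosphatase that activates CDK2, was -0.27 (SE 0.20), or -0.16 and -0.18 without that library.

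Of the 12 other pocket proteins, E2F and DP factors, 7 were positive (median 0.02). With all 6 libraries E2F3 had the largest log2 fold change of the list, 1.63, which was 0.13 without overexpression library 1. E2F8, with a mean under 1 FPKM in both groups, had a log2 fold change of 0.72. Without overexpression library 1 it was 0.78, the largest of the list. E2F1 had 49.96, 51.3 and 55.5 FPKM in the controls and 45.8, 52.5 and 48.9 FPKM in the overexpression libraries, a high level with overlapping groups (log2 -0.14, and -0.07 without overexpression library 1). RBL1 and RBL2, the relatives of RB1, had under 1 FPKM in every library. RBL2, which encodes p130, had 0.196, 0.158 and 0.224 FPKM in the controls and 0.679, 0.199 and 0.253 FPKM in the overexpression libraries, so that overexpression library 1 was again the highest, and its log2 fold change was 0.87 (SE 0.46) with that library and 0.18 without. RBL1, which encodes p107, had a log2 fold change of 0.25 (SE 0.22), and 0.13 without it.

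The 8 genes of the DREAM and MuvB complexes, which silence or activate cell cycle genes, were positive in 7. Their median was 0.24, and it was 0.09 without overexpression library 1, 0.08 without control 1 and 0.07 with the GC offset. With limma on log2(FPKM + 1), which kept only genes with a mean of at least 1 FPKM, the median was 0.09. It was 0.25 with limma on log2(FPKM + 0.1) without that filter, and 0.29 with the replicate number as a block. The exception was MYBL2, the Myb protein of the activating complex, which had 67.2, 66.2 and 66.5 FPKM in the controls and 61.3, 61.3 and 59.5 FPKM in the overexpression libraries. Its groups did not overlap, the overexpression values being lower at a log2 fold change of -0.18 (SE 0.08, edgeR adjusted p 0.994). RBBP4, a histone-binding subunit, was at 0.31 with overexpression library 1 and 0.01 without.

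Of 31 E2F target genes, 19 were positive (median 0.09, and 0.04 without overexpression library 1), against 54.8% of all genes tested. MCM2, a subunit of the replicative helicase, had 38.7, 39.1 and 38.7 FPKM in the controls and 40.1, 53.3 and 41.8 FPKM in the overexpression libraries. Its overexpression values were all higher, with library 2 the highest, at a log2 fold change of 0.17 (SE 0.11). Without overexpression library 1 it was 0.26 (95% interval 0.02 to 0.49, unadjusted p 0.0341, edgeR adjusted p 0.99998). POLE2, a subunit of DNA polymerase epsilon, had 0.811, 1.06 and 0.741 FPKM in the controls and 1.10, 1.10 and 1.18 FPKM in the overexpression libraries, also without overlap (log2 0.33, SE 0.21). RRM1, a subunit of ribonucleotide reductase, and CHAF1A, a histone chaperone subunit, had log2 fold changes of 0.25 and -0.19 with overlapping groups. Without overexpression library 1 the highest log2 fold change of the list was that of CLSPN, at 0.60, and the lowest that of RFC3, at -0.33. With that library they were 0.71 and 0.62. The list thus had genes on both sides of 0.

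**Figure D5:**
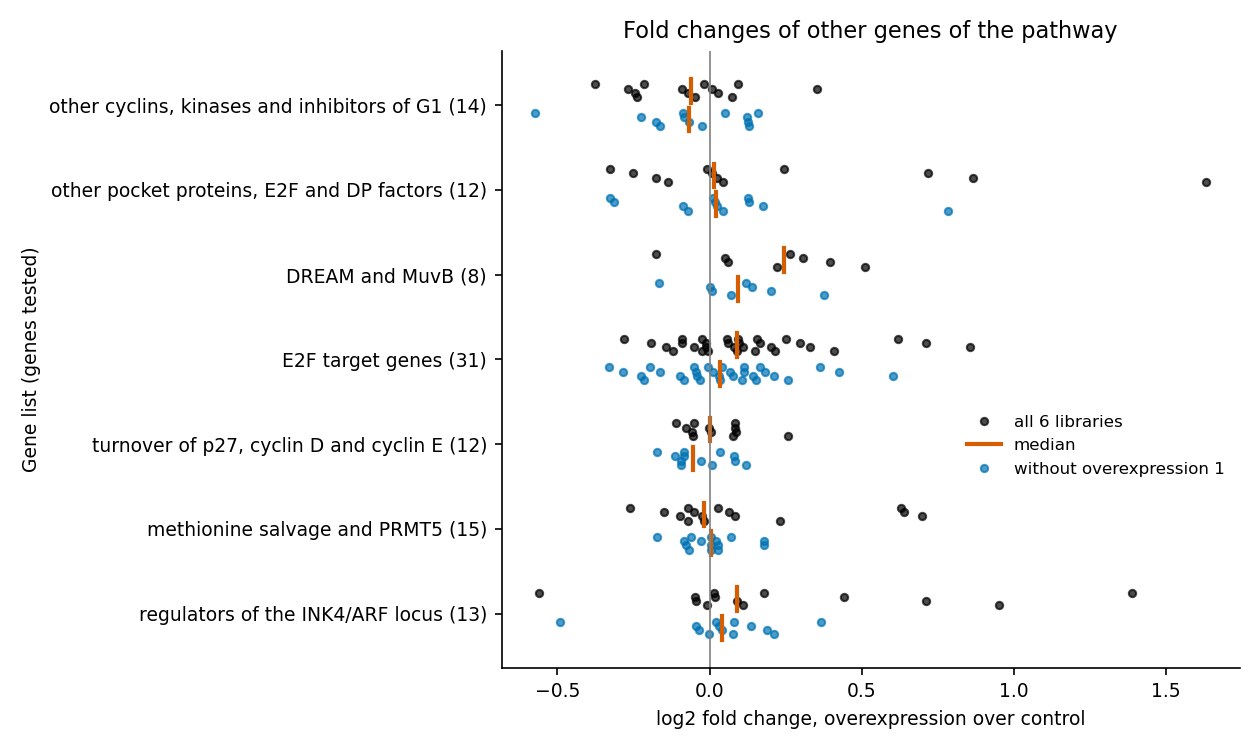
log2 fold changes, overexpression over control, of the genes tested in 7 lists (points), with all 6 libraries (black) and without overexpression library 1 (blue), and the median of each list (orange bars). The medians lie between -0.06 and 0.24 with that library and between -0.07 and 0.09 without it, and the points above 0.6 are mostly black.

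Turnover genes of p27 and of cyclins D and E lay around 0. Of 12 tested, 6 were positive and the median was 0.00. CKS1B, which helps the ubiquitin ligase that recognises p27, had a log2 fold change of 0.08 (SE 0.13), and FBXO31, an F-box protein that directs cyclin D1 to degradation, one of -0.11 (SE 0.09).

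On the ARF branch, MDM2, the ubiquitin ligase that ARF inhibits, had 0.413, 0.668 and 0.650 FPKM in the controls and 2.67, 0.647 and 0.732 FPKM in the overexpression libraries. As for RB1, only overexpression library 1 was high, and the log2 fold change of 1.16 (SE 0.54) was 0.24 without it. MDM4, the relative and partner of MDM2, lay the other way, with 0.185, 0.172 and 0.167 FPKM in the controls and 0.0924, 0.125 and 0.114 FPKM in the overexpression libraries. Its overexpression values were all below the controls, at a log2 fold change of -0.71 (SE 0.22, unadjusted p 0.0132, edgeR adjusted p 0.994) and -0.58 without overexpression library 1, from a level under 1 FPKM.

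MTAP breaks down methylthioadenosine, a compound that inhibits the methyltransferase PRMT5, so its partners were described too. Of 15 genes of methionine salvage and PRMT5, 7 were positive (median -0.02, and 0.00 without overexpression library 1). PRMT5 was expressed at 56.9, 54.1 and 52.96 FPKM in the controls and 49.8, 57.8 and 55.05 FPKM in the overexpression libraries, with a log2 fold change of -0.05 (SE 0.10), and 0.02 without that library. MAT2A, which makes S-adenosylmethionine, had 9.20, 10.5 and 7.93 FPKM in the controls and 11.4, 9.70 and 9.07 FPKM in the overexpression libraries (log2 0.08, SE 0.12, and 0.00 without that library). ENOPH1, an enzyme of the salvage pathway downstream of MTAP, had 6.95, 9.06 and 7.84 FPKM in the controls and 20.02, 11.1 and 7.42 FPKM in the overexpression libraries, and its log2 fold change of 0.63 (SE 0.31) was 0.18 without overexpression library 1. ODC1, which makes the polyamine putrescine, was at -0.26 (SE 0.12) with overlapping groups, and -0.17 without that library.

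Genes known to regulate the INK4 and ARF promoters, mostly Polycomb subunits, were positive in 9 of 13 (median 0.09, and 0.04 without overexpression library 1). Of the 4 that were negative, KDM6B was the lowest, at -0.56, and -0.49 without that library. In the list 2 genes had an unadjusted edgeR p under 0.05, where 3.83% of all genes tested had one. EED, a core subunit of Polycomb complex 2, had 1.19, 1.58 and 1.46 FPKM in the controls and 8.94, 1.45 and 1.33 FPKM in the overexpression libraries. The value in overexpression library 1 was again alone in being high, and the log2 fold change went from 1.39 (SE 0.69) to -0.04 without it. BMI1, a Polycomb complex 1 subunit known to silence CDKN2A, went from 0.71 (SE 0.38) to 0.13. BMI1 met the level set for naming a gene only through that library, with an overexpression mean of 1.05 FPKM, and 0.69 FPKM without it. CBX8, another Polycomb subunit, was at 0.11 and 0.21 in the same order. Transcripts of EED and BMI1 have 32.96% and 39.1% GC, in the class that was high in that library. With a GC offset per library the median of the list was 0.0049. The part of GC content in the values of EED and BMI1 was not tested.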

How the data were processed

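The counts, like the FPKM, were deposited by the authors. Per the submitters' processing notes, reads were handled with cutadapt 1.9, HISAT2 2.0.4, StringTie 1.3.4d and edgeR on hg38; the annotation release and strandedness are not given in the sources used here. Deposited FPKM values are scaled to transcript length and to the mapped fragments of each library. Deposited estimated counts (expected counts) are whole numbers whose low values pile up at multiples of 4, so they were not read as tallies and no counting intervals are given. The depth was 54371226 to 74586916 counts per library; if 4 counts stand for 1 fragment, fragments were fewer.

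Counts were tested with edgeR 4.0.16 in R 4.3.3 (quasi-likelihood, TMM, filterByExpr with a minimum count of 10, group as the only term, 2-sided), with p-values adjusted by Benjamini-Hochberg over 15951 genes at a threshold of 0.05. The biological coefficient of variation was 30.7%. Expressed means at least 1 FPKM in every library. Ratios were compared by exact permutation tests. The test was tried on counts simulated with known changes at the means, dispersions and library sizes of these data. The simulation held no outlying library and no effect of GC content, so it does not show how the test fares with either. Its outcome is not reported here. Alternatives were DESeq2 1.42.0, scaling by RLE or by the upper quartile, leaving out the filter, limma 3.58.1 on log2(FPKM + 1) and log2(FPKM + 0.1), the replicate number as a block and each library left out. Chosen after seeing the data were the division of counts by 4, an offset for GC content from GENCODE 29 transcripts (GC known for 96.2% of genes tested), and that offset with the block. The table gave 142 symbols on more than 1 row, of which the highest stood for the symbol.

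The genes and lists were chosen with earlier results of these data known. Named besides the 10 genes are up to 4 genes per list with the smallest unadjusted p and a mean of at least 1 FPKM in either group, defining genes of the pathway, and the nearest expressed genes on 9p; HAUS6, HACD4, KLHL9, the pseudogenes and the marker genes COL3A1, DCN, FAP, VIM, CDH1, LGALS1, EGFR, EPCAM, PGR and PDGFRB, as well as MDM4, APOLD1, SAMD9, SAMD9L and genes that overlap those described, were named after their values were seen. E2F3, E2F8, CLSPN, RFC3 and KDM6B were also named after their values were seen. BMI1 and COL1A1 reached the mean of 1 FPKM only through overexpression library 1. Promoter sequences are from RefSeq (GRCh38.p14), which held windows for 9 of the 10 genes. Some results are not reported here.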

Additional observations from a re-analysis of the deposited data

How the results depend on the processing

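None of the 7 genes tested passed under any of the 17 alternatives that covered it, where the lowest adjusted p was 0.434. The limma fits with a filter kept only genes with a mean of at least 1 FPKM. CDK6 was left out of them, and RB1 reached that mean only through overexpression library 1. Genes past the test numbered 14 with DESeq2 and 0 to 4 when each library was left out, with 4 without overexpression replicate 1 and 2 without overexpression replicate 2. CDKN2C (0.28 to 0.49), CDKN1B (0.04 to 0.41), CCND3 (-0.20 to -0.08) and RB1 (0.23 to 1.85) kept the sign of their log2 fold change throughout. CDK4, at -0.01, was 0.0364 with limma on log2(FPKM + 1), 0.037 on log2(FPKM + 0.1) with and without a filter, 0.0196 with the GC offset and 0.0191 with that offset and the block, and -0.0256 to 0.0163 when a library was left out. CCND1 ran from -0.0030 without overexpression replicate 2 to 0.10 over the leave-outs. CDK6 was -0.0466 with the GC offset and -0.0569 with that offset and the block. Of these reversals the cause was not tested. Genes whose groups did not overlap numbered 2 on FPKM, 1 (CDKN2C) on TMM-scaled CPM and 2 to 5 over the leave-outs. CDKN2C and CCND3 were joined by CDK4, CDK6 and RB1 without overexpression replicate 3, which made 5. In that leave-out 23.6% of all genes tested were higher and 5.98% lower without overlap. Upper-quartile scaling moved the median of all genes to -0.01 and the positive genes from 8742 to 7560, and it put the medians of the pocket protein and E2F list (-0.02), the turnover list (-0.04) and the 9p list (-0.02) below 0. Over the leave-outs the list medians ran from -0.15 to -0.03 (other G1 genes), -0.02 to 0.03 (pocket proteins and E2F), 0.08 to 0.32 (DREAM and MuvB), 0.04 to 0.13 (E2F targets), -0.07 to 0.07 (turnover), -0.05 to 0.00 (methionine salvage), 0.01 to 0.28 (9p) and 0.04 to 0.15 (locus regulators). With the replicate number as a block, 0 genes passed and the log2 fold changes were 0.97 for RB1 and 0.40 for CDKN2C; same-numbered libraries deviated with correlations of -0.05, 0.02 and 0.14, so the numbers were not taken to pair them. Values under 1 FPKM, as for CDK6 and RB1, rest on 131 to 333 counts outside overexpression replicate 1, and the 9 and 4 counts of CDKN2A and MTAP on fewer still.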

Other observations

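Among other markers of the line and of other cells, KRT19, a keratin of simple epithelia, had 1895 to 2505 FPKM, LGALS1, a galectin, 2300 to 2933 FPKM, and S100A4, a calcium-binding protein of mesenchymal cells, 1706 to 2110 FPKM. EGFR was low at 0.580 to 0.849 FPKM, as was EPCAM at 0.0898 to 0.283 FPKM. The progesterone receptor gene PGR had 4 counts in overexpression library 1 and 0 in the other 5. Of the leukocyte and endothelial markers 8 of 9 had a row and 3 were tested, with a summed level of 25.6 to 31.5 CPM that was mostly CD14 (13.05 to 16.7 FPKM). Of the luminal markers 7 of 9 had a row, and 3 of the 5 tested were positive (median 0.05).

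Rows with counts in 1 library alone were commonest in overexpression library 1. Those with at least 9 counts numbered 22, 29 and 41 in the controls and 234, 45 and 32 in the overexpression libraries, and those with at least 4 counts 199, 260 and 305 against 662, 289 and 311. CDKN2A, with 9 counts, is in the first class, and MTAP, with 4, is in the second class.

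Genes that overlap or adjoin the genes described, tested in 12 of 18, were positive in 8 (median 0.06, and 0.08 without overexpression library 1), and 0 passed the test. The median was -0.0012 without overexpression library 2 and -0.06 without overexpression library 3. Among those with a mean of at least 1 FPKM, LTO1, which overlaps CCND1, had the smallest unadjusted p (0.161), at a log2 fold change of -0.30 (SE 0.19) and -0.16 without overexpression library 1. At lower levels, APOLD1 was at 1.46 (unadjusted p 0.0873) and SAMD9 at 1.04 (unadjusted p 0.0790), and 0.06 and 0.20 without that library. SAMD9L was the gene of the list whose groups did not overlap, with 0.0794, 0.119 and 0.105 FPKM in the controls and 0.131, 0.129 and 0.120 FPKM in the overexpression libraries (log2 0.29, SE 0.25).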
